A study of Arabidopsis thaliana with 6 samples.

Results

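The AT4G06 loci are a run of annotated loci near the centromere of chromosome 4, most of them remnants of transposable elements. They were taken as every row of the authors' total gene RPKM table whose locus identifier begins with AT4G06, which gave 223 of 33602 loci. Of these, 222 matched the RefSeq annotation of TAIR10.1, all on chromosome 4 within a span of 1063.3 kb. The annotation calls 198 of them pseudogenes, 9 transcribed pseudogenes, 14 protein coding and 1 a non-coding RNA, and has no separate class for transposons. AT4G06740 had no match.

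Pericentromeric heterochromatin in Arabidopsis is dense in retrotransposons and is normally kept silent by DNA methylation, histone H3 lysine 9 methylation and small RNAs. Long terminal repeat (LTR) retrotransposons carry the same repeat at both ends and spread by copying their RNA into DNA, so near-identical copies lie at many places. Endosperm, the nourishing tissue of the seed, receives a larger genome dose from its mother than from its father, and its maternal genome is known to lose DNA methylation at many transposons.

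The values are RNA levels in nuclei of F1 endosperm, collected 4 days after pollination and captured by INTACT, which isolates nuclei that carry a tagged envelope protein. In Cm x L the mother was TEmob, a tagged Columbia-0 line, and the father was the Landsberg erecta accession (Ler). In L x Cm a Ler pistillata mutant, whose flowers lack stamens, was the mother and TEmob was the father. Each cross had 3 libraries. TEmob is 1 line, obtained from seeds that germinated on α-amanitin and zebularine (40 µM) and were then kept at 37 °C, followed by a cross to a CENH3 tailswap plant and colchicine doubling of a haploid. All 6 libraries carry TEmob, and untreated Columbia endosperm was not analysed here. The direction of the cross therefore changes together with the accession that gives the larger dose, the parent that brings the tag, and how many reads fit the Columbia-based reference without a mismatch, and these cannot be told apart. The labels number the libraries without saying that they came from separate plants, so a p-value here reflects only how far the samples spread, and that spread may be technical.

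Recovered read totals were 21.2 to 29.2 M per library, and 1 read on a locus of 1 kb was worth 0.0342 to 0.0471 RPKM (a read count scaled by locus length and library total). Loci listed at 0 across the whole table numbered 5036, 1005 and 10084 in the Cm x L libraries, in replicate order, and 1270, 2137 and 3636 in the L x Cm libraries. Cm x L replicate 3 therefore stood apart by its many zeros, and Cm x L replicate 2 by low values at nearly every locus. The 9 endosperm markers, among them PHE1 and FWA, were all above 0 in every library and summed to 373.5 to 425.9 RPKM in Cm x L against 501.1 to 587.0 in L x Cm, with FIS2 called higher in Cm x L (0.61 on the log2 scale) and MINI3 and IKU2 lower (-2.52 and -1.51). The 7 pollen markers summed to 61.7 to 730.9 RPKM in Cm x L against 783.9 to 2986.0 in L x Cm, with 3 of 7 called lower in Cm x L and MGH3 and DUO1 at 0 in Cm x L replicate 3. The 5 embryo markers summed to 72.7 to 160.4 against 77.2 to 96.4 RPKM, with 1 called higher and 3 lower. LEC1, the one called higher (1.46), made up nearly all of the sum in Cm x L. STM (-2.91), WOX9 (-2.51) and DRN (-2.03) were lower, and WOX2 (-1.31) was not called. The 6 seed coat markers summed to 126.8 to 382.9 against 221.2 to 447.4 RPKM. The part of other cell types in the results was not tested, and in RNA from many nuclei a change in the share of a cell type cannot be told apart from a change in RNA per cell.

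The number of AT4G06 loci with any signal varied as much within a cross as between the crosses. Loci above 0 RPKM numbered 114, 220 and 39 of 223 in the Cm x L libraries, given in replicate order here and below, against 210, 197 and 175 for L x Cm. The Cm x L libraries lay on both sides of all 3 L x Cm libraries. The means were 124.3 ± 90.9 and 194.0 ± 17.7 loci (SD, n = 3 per cross; exact permutation test on the counts, 2-sided, p = 0.40). Each of the 223 loci was above 0 in at least 1 library, and 31 were above 0 in all 6. In the 3 Cm x L libraries 3 loci were at 0, AT4G06520, AT4G06611 and AT4G06618.

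Counting loci above 1 RPKM separated the crosses. There were 11, 43 and 9 such loci in Cm x L, or 4.93%, 19.3% and 4.04% of the 223. There were 119, 91 and 77 in L x Cm, or 53.4%, 40.8% and 34.5%. Every L x Cm library held more than any Cm x L library. The whole table separated in the same direction, with 60.7%, 69.9% and 59.1% of all loci above 1 RPKM in Cm x L and 87.7%, 81.6% and 76.6% in L x Cm. The means of 21.0 ± 19.1 and 95.7 ± 21.4 loci differed 4.56-fold (SD, n = 3 per cross; exact permutation test, 2-sided, p = 0.10, the smallest that 3 against 3 libraries can give). The 28 loci above 1 RPKM in the 3 L x Cm libraries and in no Cm x L library had no counterpart in the other direction, where the count was 0. The same counts were not made for the whole table, which separated in the same direction, so they do not set these loci apart. Only 6 loci exceeded 1 RPKM in all 6 libraries, namely AT4G06477, AT4G06598, AT4G06599, AT4G06634, AT4G06676 and AT4G06701, and 85 loci never did.

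**Figure D1:**
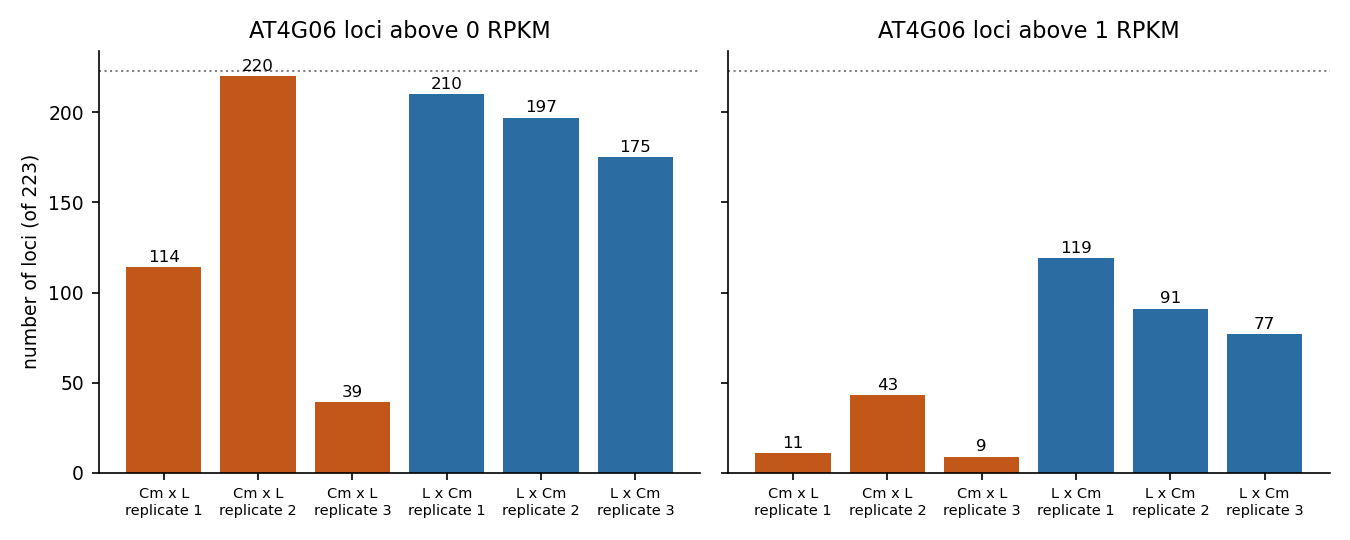
Number of AT4G06 loci above 0 RPKM (left) and above 1 RPKM (right) in each library. Bars are counts of the 223 loci, Cm x L in orange and L x Cm in blue, and the dotted line marks 223. Loci above 0 ranged from 39 to 220 within Cm x L alone, whereas loci above 1 reached at most 43 in Cm x L and at least 77 in L x Cm.

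Pseudogenes elsewhere in the genome were high and low in the same libraries. Of the 4630 annotated pseudogenes outside AT4G06, transcribed ones included, 11.1%, 24.1% and 9.5% were above 1 RPKM in Cm x L and 61.9%, 46.8% and 36.1% in L x Cm. The median AT4G06 locus had 0.00746, 0.599 and 0 RPKM in Cm x L against 1.08, 0.706 and 0.561 RPKM in L x Cm. The median of the other pseudogenes was 0.0433, 0.61 and 0 RPKM in Cm x L against 1.46, 0.896 and 0.583 in L x Cm. In each library the AT4G06 median was at or below that of the other pseudogenes. Among the 3 Cm x L libraries, replicate 2 held the highest value at 211 of the 223 loci. What the shared low level in Cm x L replicate 2 and in L x Cm comes from was not tested. The median of the pseudogenes outside AT4G06 without the transcribed ones (0 to 1.38 RPKM) was also subtracted from each library. This alternative was chosen after the data were seen. The difference in loci above 1 RPKM then fell from 74.67 to 41.0 loci. In the test by locus described below, 33 loci were lower and 2 higher after the subtraction, against 35 and 2 without it.

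**Figure D2:**
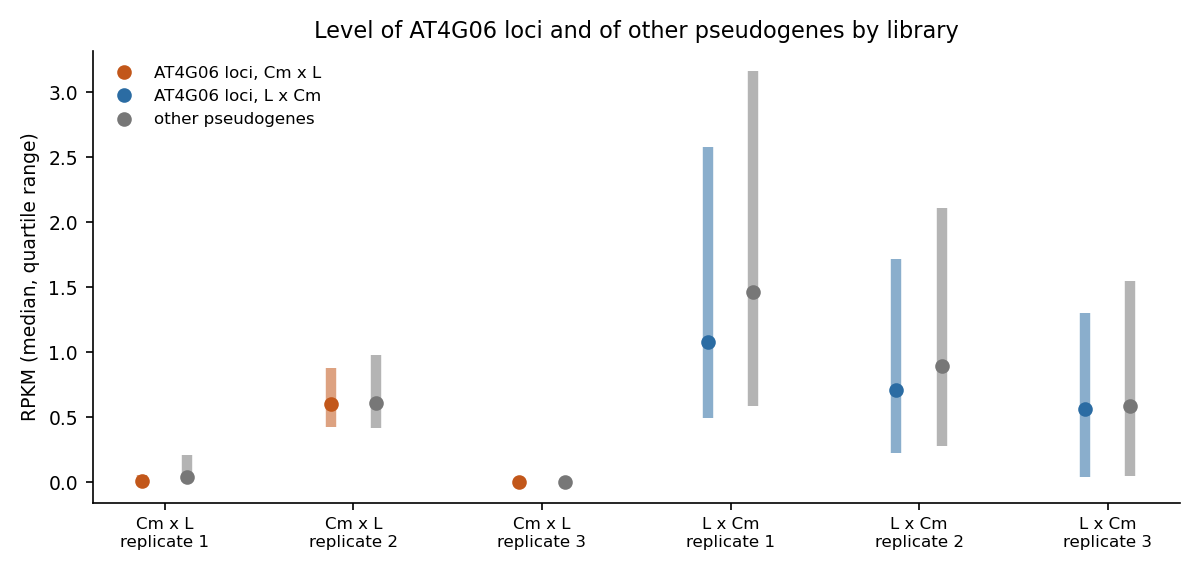
Median RPKM (points) and quartile range (bars) of the 223 AT4G06 loci, orange for Cm x L and blue for L x Cm, beside the 4630 other pseudogenes in grey, in each library. The medians of the loci and of the other pseudogenes moved together, from 0 in Cm x L replicate 3 to 1.08 and 1.46 RPKM in L x Cm replicate 1.

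The summed level of the AT4G06 loci was 198.8, 367.0 and 138.8 RPKM in Cm x L against 2169.0, 1233.6 and 1232.2 RPKM in L x Cm. The crosses did not overlap, and the L x Cm mean was 6.58-fold higher (234.9 ± 118.3 against 1544.9 ± 540.5 RPKM, SD, n = 3 per cross; exact permutation test on log2 sums, 2-sided, p = 0.10). A single locus, AT4G06477, made up 64.5%, 63.1% and 68.6% of the sum in L x Cm and 19.7%, 18.8% and 15.3% in Cm x L. Without it the sums still did not overlap, at 191.7 ± 94.4 and 537.2 ± 203.7 RPKM, a 2.8-fold difference (n = 3 per cross, exact permutation p = 0.10).

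Locus by locus, the change was mostly one way. A locus was tested if its mean over the 6 libraries was at least 1 RPKM, by limma on log2(RPKM + 1), with Benjamini-Hochberg adjustment at 0.05 over all 26620 tested loci of the table. Differences below are given as the Cm x L mean minus the L x Cm mean, and a fold on this scale understates the change of low loci. Of the 223 loci, 63 were tested, 35 were lower in Cm x L and 2 were higher, AT4G06599 and AT4G06748. Across all tested loci 18.3% were lower and 6.73% higher. Of the 63, 48 entered only through their L x Cm mean, so the count of lower loci is tied to that filter. Among all tested loci with a mean of 1 to 5 RPKM, where 27 of the 35 lower loci lie, 33.2% were lower and 0.465% higher. With no filter, all 223 loci entered, and 42 were lower and 3 higher, against 14.8% and 4.91% of 33171 loci.

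The median difference of the 63 loci was -1.5, against -0.22 over all tested loci. For all 223 without the filter it was -0.49, against -0.28. At 79 of the 223 loci the crosses shared no part of their ranges, with L x Cm higher at 74 and Cm x L higher at 5. The same held for 39.6% of the whole table, 27.1% with L x Cm higher and 12.5% with Cm x L higher. Of the 63 tested loci 49 were without overlap, against 45.5% of all tested loci (29.8% lower and 15.7% higher in Cm x L). The 5 loci of the 223 with Cm x L higher were AT4G06599, AT4G06634, AT4G06672, AT4G06701 and AT4G06748. Quantile normalization, which moves the median of all tested loci from -0.22 to 0.02, left 15 AT4G06 loci lower and 3 higher (the third was AT4G06701), or 83.3% of calls lower against 94.6%. Over the table it changed the calls from 4870 lower and 1792 higher to 1864 lower and 1950 higher. Leaving out 1 library gave 11 lower loci without Cm x L replicate 1, 16 without L x Cm replicate 1 and 18 without L x Cm replicate 2.

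Neighbouring blocks of locus numbers and pseudogenes elsewhere also held more lower than higher calls. Of the tested AT4G05 loci, 15 of 61 were lower and 5 higher, with a median difference of -0.28. Of the AT4G07 loci, 4 of 21 were lower and 3 higher, with a median of -1.19. Of the AT4G08 loci, 25 of 94 were lower and 5 higher, with a median of -0.67. Of 1643 tested pseudogenes outside AT4G06, 638 were lower (38.8%) and 45 higher, with a median of -1.25. Over all annotated loci outside AT4G06 that are not protein coding, 757 of 2479 were lower and 85 higher, with a median of -1.1. With no filter on level the counts were 15 lower and 5 higher of 116 for AT4G05 (median -0.38), 7 and 3 of 166 for AT4G07 (-0.2), and 28 and 4 of 199 for AT4G08 (-0.55). Of the pseudogenes outside AT4G06, 752 of 4609 were then lower (16.3%) and 42 higher, with a median of -0.54, and of the AT4G06 loci 18.8% were lower, with a median of -0.49. Of all loci outside AT4G06 that are not protein coding, 870 of 5812 were lower and 81 higher (-0.51). Whether the AT4G06 loci differ from any of these lists was not tested.

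AT4G06477, annotated as a pseudogene of 4320 bp, had the highest mean over the 6 libraries of the AT4G06 loci, although YY1 (AT4G06634) had the higher mean in Cm x L (50.5 against 43.1 RPKM). Its difference was the largest on the log2(RPKM + 1) scale. AT4G06716 passed it with a pseudocount of 0.5 (-4.94 against -4.64) or 0.1 (-6.02 against -4.65) and without Cm x L replicate 2 (-5.15 against -5.03). With a pseudocount of 0.1 so did AT4G06704 (-5.35), AT4G06664 (-5.27), AT4G06710 (-5.19), AT4G06724 (-5.11), AT4G06714 (-4.87) and AT4G06479 (-4.86). AT4G06477 had 39.2, 69.0 and 21.2 RPKM in Cm x L against 1399.9, 778.1 and 845.2 RPKM in L x Cm. The lowest L x Cm library was far above the highest Cm x L library, and the mean was 23.4-fold higher in L x Cm. The log2 difference was -4.62 (SE 0.42, limma adjusted p = 0.0043, n = 3 per cross). These values stand for 4945, 7028 and 2031 reads in Cm x L and 164536, 72956 and 77440 in L x Cm, so counting error is small beside the spread between libraries. The sequence of the locus found 546 other stretches of the genome of at least 200 bp at 80% identity or more. None was a close copy, meaning at least 95% identity over at least 80% of the locus, and the longest reached 83.0% identity over 56.4% of it. Only its first 96 bases, 2.2% of the locus, had no such match. Those bases are in capitals in the first 200 bases of the locus, chr4:3065095-3065294 on the minus strand of TAIR10.1 (RefSeq), shown because they are the stretch with no such relative.
AT4G06477: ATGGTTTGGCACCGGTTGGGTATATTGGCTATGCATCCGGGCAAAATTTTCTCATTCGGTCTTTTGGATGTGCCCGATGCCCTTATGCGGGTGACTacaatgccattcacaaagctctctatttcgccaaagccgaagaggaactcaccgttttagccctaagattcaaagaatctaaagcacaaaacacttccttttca

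The next 5 largest differences on the log2(RPKM + 1) scale came from pieces of 2 copies of one repeat-flanked element. With a pseudocount of 0.1, AT4G06704 (-5.35) and AT4G06724 (-5.11) ranked above AT4G06714 (-4.87) and AT4G06712 (-4.57). AT4G06479 (-4.86) and AT4G06656 (-4.61) also ranked above AT4G06712. The 411 bp of AT4G06710 recur on the same strand at AT4G06716 with 99.3% identity, so that the pair flanks AT4G06712 and AT4G06714 in a unit of 9054 bp, chr4:3988849-3997902. The same repeat bounds a second unit of 9366 bp, chr4:3867876-3877241, which holds AT4G06664 and AT4G06666. AT4G06664 and AT4G06712 were 99.1% identical over 1869 bp, and AT4G06666 and AT4G06714 98.3% over 2351 bp. AT4G06656 is a further relative, 98.3% identical to AT4G06664 over 1975 bp. Reads from these loci can be shared between copies, and how the authors' counting treated reads with several matches is not given in the sources used here, so the loci are not independent observations. The 264 bases of AT4G06716 (chr4:3997492-3997755) and the matching bases of AT4G06710 (chr4:3988849-3989112), both on the minus strand, are shown because they differ at 1 position, G148A, counted from the 5′ end with AT4G06716 first. That base is in capitals.
AT4G06716: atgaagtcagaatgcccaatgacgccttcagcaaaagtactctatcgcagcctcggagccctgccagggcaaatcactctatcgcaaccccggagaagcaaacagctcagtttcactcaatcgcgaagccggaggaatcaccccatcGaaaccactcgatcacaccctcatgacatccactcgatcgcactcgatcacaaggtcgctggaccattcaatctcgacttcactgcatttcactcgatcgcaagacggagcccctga
AT4G06710: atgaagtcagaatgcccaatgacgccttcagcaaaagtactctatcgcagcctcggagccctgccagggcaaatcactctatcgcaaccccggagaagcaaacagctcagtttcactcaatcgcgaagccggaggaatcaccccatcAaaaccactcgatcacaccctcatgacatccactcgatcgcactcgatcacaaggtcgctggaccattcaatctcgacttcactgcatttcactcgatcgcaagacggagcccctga

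AT4G06716, at one end of the element, had 0.389, 4.98 and 0 RPKM in Cm x L against 53.6, 33.2 and 38.2 RPKM in L x Cm (log2 difference -4.37, SE 0.61, limma adjusted p = 0.0069). AT4G06710, at its other end, had 1.17, 3.2 and 0 RPKM against 46.0, 18.0 and 24.2 RPKM (-3.76, SE 0.55, limma adjusted p = 0.0073). At both ends Cm x L replicate 2 was the highest of its cross and still lay below every L x Cm library. Between the repeats, AT4G06712 had 1.13, 2.56 and 0.918 RPKM against 73.3, 27.4 and 22.0 RPKM (-3.9, SE 0.46, limma adjusted p = 0.0056). AT4G06714 had 0.524, 3.13 and 0 RPKM against 35.7, 10.5 and 13.1 RPKM (-3.3, SE 0.61, limma adjusted p = 0.012). In both loci L x Cm replicate 1 had the highest value, and the crosses did not overlap.

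In the other copy, AT4G06664 had 0.579, 1.92 and 0.0898 RPKM in Cm x L against 51.9, 18.6 and 15.3 RPKM in L x Cm (-3.91, SE 0.53, limma adjusted p = 0.0065). The order of the libraries was the same as for AT4G06712, its near-identical counterpart. That order is not particular to the copies, since AT4G06506 and AT4G06604, outside both units, had it too. AT4G06656 had 0.246, 1.16 and 0.123 RPKM against 22.0, 8.96 and 6.95 RPKM (-3.08, SE 0.47, limma adjusted p = 0.0077). Summed over the 4 loci of the unit with AT4G06712, the recovered reads were 117, 358 and 38 in Cm x L and 7039, 2026 and 1986 in L x Cm. Over the 2 loci of the other unit they were 67, 181 and 4 against 3845, 1096 and 974. Both units thus had their fewest reads in Cm x L replicate 3 and their most in L x Cm replicate 1. The median of the other pseudogenes was also lowest (0 RPKM) and highest (1.46 RPKM) in these libraries.

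Close copies of these element pieces outside AT4G06 moved the same way. There were 10 such loci at 95.2% to 98.4% identity, all 10 tested and all 10 lower in Cm x L, with log2 differences of -3.12 to -1.5. All 10 had a Cm x L mean under 1 RPKM and entered the test only through L x Cm, so the count is tied to that filter. Of all tested pseudogenes outside AT4G06, 38.8% were lower. The closest, AT2G10280 on chromosome 2, had 0.426, 2.22 and 0.137 RPKM in Cm x L against 25.5, 10.0 and 8.38 RPKM in L x Cm (-3.01, limma adjusted p = 0.01). A copy of the terminal repeat on chromosome 1, AT1G37015, had 0.269, 1.67 and 0 RPKM against 22.3, 6.53 and 11.8 RPKM (-3.12, limma adjusted p = 0.0092). The crosses did not overlap at either locus. Since copies this alike can share reads, which copies were transcribed cannot be told apart.

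The remaining loci among the 10 largest differences were AT4G06724, AT4G06704 and AT4G06517, all annotated as pseudogenes. AT4G06724 had 0, 1.63 and 0 RPKM in Cm x L against 14.6, 6.12 and 7.65 RPKM in L x Cm (-2.84, SE 0.5, limma adjusted p = 0.01). AT4G06704 had 0.0178, 0.309 and 0 RPKM against 12.7, 5.87 and 4.12 RPKM (-2.83, SE 0.43, limma adjusted p = 0.0076). AT4G06517 had 0.0528, 1.11 and 0.139 RPKM against 10.7, 7.85 and 3.98 RPKM (-2.55, SE 0.45, limma adjusted p = 0.01). Each was near or at 0 in at least 2 Cm x L libraries and above all of them in every L x Cm library. AT4G06517 has 8 close copies outside AT4G06 at 96.8% to 97.4% identity. Of the 7 that were tested, 1 was lower, with differences from -2.2 to -0.69, and whether they differ from AT4G06517 was not tested.

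Over the whole block, 31 of the 223 loci had a close copy elsewhere in the genome, and 193 had at least one other match of 200 bp or more. Of the 31, 15 were lower, 5 were tested and not called, and 11 were not tested. Of the others, 20 were lower, 2 higher, 20 not called and 149 not tested. The median difference of tested loci was -2.03 with a close copy and -1.43 without. All 35 lower loci had at least a 2-fold difference on the log2(RPKM + 1) scale and no overlap between crosses, and 30 of them had a Cm x L mean under 1 RPKM. A large difference and separate ranges are favoured by the call itself with 3 libraries per cross, so they add no support. Their share among all lower calls of the table was not counted.

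**Figure D3:**
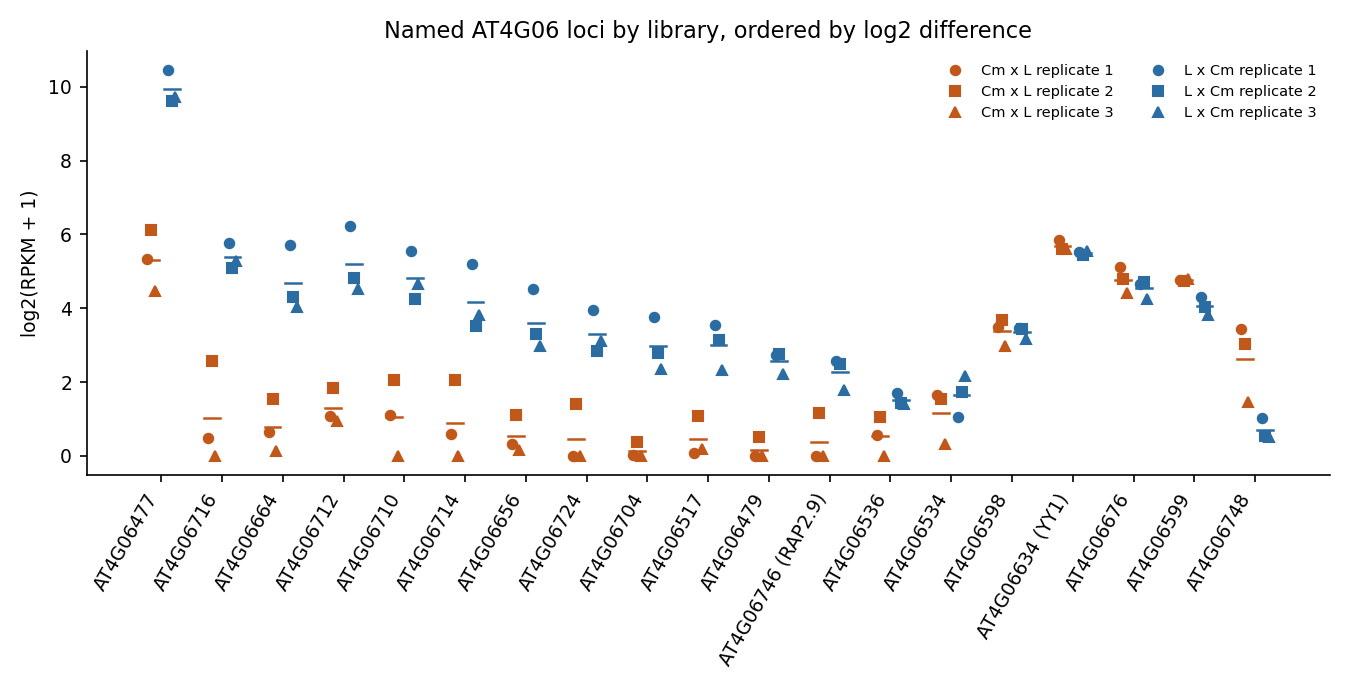
log2(RPKM + 1) of the named AT4G06 loci in each library (symbols by replicate, orange for Cm x L and blue for L x Cm), with a bar at each cross mean and loci ordered by their difference. AT4G06477 and the element pieces at the left separate by 3 or more log2 units, whereas AT4G06598, AT4G06634 and AT4G06676 overlap or nearly overlap, and AT4G06599 and AT4G06748 are higher in Cm x L.

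The 14 protein coding loci were mixed in direction. Of these, 8 were tested, 2 were lower, 1 was higher and 5 were not called. The same fit called 18.3% of all tested loci lower and 6.73% higher, and whether these 8 differ from that was not tested. AT4G06479, which encodes a zinc ion binding protein, had 0, 0.419 and 0 RPKM in Cm x L against 5.61, 5.84 and 3.64 RPKM in L x Cm (-2.4, SE 0.35, limma adjusted p = 0.0074). RAP2.9 (AT4G06746), a transcription factor of the AP2/ERF family, had 0, 1.23 and 0 RPKM against 4.97, 4.65 and 2.42 RPKM (-1.9, SE 0.45, limma adjusted p = 0.023). AT4G06479 was near or at 0 in Cm x L. RAP2.9 was at 0 in 2 Cm x L libraries but reached 1.23 RPKM in replicate 2. The crosses did not overlap at either gene. The RAP2.9 call was held in 3 of the 6 fits that left out 1 library, and was lost when the first Cm x L library (adjusted p = 0.091) or the first or second L x Cm library (0.074 and 0.081) was left out.

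AT4G06599, a ubiquitin family gene, rose in Cm x L. It had 26.0, 25.7 and 26.7 RPKM in Cm x L against 18.9, 15.3 and 13.2 RPKM in L x Cm (0.71, SE 0.18, limma adjusted p = 0.028). All 3 Cm x L libraries lay close together and above the L x Cm libraries. It was no longer called when Cm x L replicate 1 (adjusted p = 0.094) or 2 (0.069) or L x Cm replicate 2 (0.084) or 3 (0.053) was left out, nor with median-ratio scaling (0.058).

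YY1, AT4G06676 and AT4G06598 were among the genes not called, which does not show that their levels were equal. YY1 (AT4G06634), a zinc finger transcription factor, had 56.2, 47.9 and 47.5 RPKM in Cm x L against 45.2, 42.5 and 46.0 RPKM in L x Cm (0.17, limma adjusted p = 0.39). AT4G06676, annotated as an etoposide-induced protein, had 33.6, 26.6 and 20.4 RPKM against 24.3, 25.1 and 17.9 RPKM (0.24, limma adjusted p = 0.46). The bZIP gene AT4G06598 had 10.2, 11.8 and 6.92 RPKM against 10.1, 9.78 and 7.99 RPKM (0.02, limma adjusted p = 0.95; -0.11 with median-ratio scaling). AT4G06676 and AT4G06598 overlapped between crosses, and YY1 was slightly higher in each Cm x L library. AT4G06534 and the SPRY domain gene AT4G06536 had differences of -0.49 and -0.98 (limma adjusted p = 0.48 and 0.1), which turned to 0.59 and 0.04 with quantile normalization.

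Besides AT4G06599, the locus that rose in Cm x L was AT4G06748, a transcribed pseudogene. It had 9.81, 7.11 and 1.74 RPKM in Cm x L against 1.03, 0.458 and 0.439 RPKM in L x Cm (1.94, SE 0.53, limma adjusted p = 0.034). The crosses did not overlap, but the Cm x L libraries spread widely, and the call was held in 1 of the 6 fits that left out 1 library, the fit without Cm x L replicate 3. Adjusted p was 0.14 and 0.087 without Cm x L replicates 1 and 2, and 0.073, 0.1 and 0.069 without L x Cm replicates 1, 2 and 3. AT4G06672, a pseudogene of 576 bp (399 bp of exon) chosen here after its values were seen, was the only locus at 0 in the 3 L x Cm libraries and above 0 in the 3 Cm x L libraries, at 0.686, 1.81 and 1.24 RPKM. These are 8, 17 and 11 reads, and a count of 0 allows up to 3 reads in a library, for counting error only. It has 2 close copies, AT3G32070 on chromosome 3 at 95.7% identity and AT2G12066 on chromosome 2 at 95.3%, so reads could be shared. It was below the level for testing and was called higher only with no filter. The non-coding RNA AT4G06701 had 8.00 ± 4.20 RPKM in Cm x L against 3.73 ± 1.36 in L x Cm (SD, n = 3 per cross; 0.88, limma adjusted p = 0.13).

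The lower loci lay mostly in the outer stretches of the block. In the first of 4 equal stretches of its 1063.3 kb, 9 of 50 loci were lower and the median of the locus means was 0.242 RPKM in Cm x L against 1.05 in L x Cm. In the second, 2 of 64 were lower (0.183 against 0.535 RPKM), and in the third 4 of 59 were lower and 1 higher (0.209 against 0.583 RPKM). In the last stretch, 20 of 49 were lower and 1 higher (0.304 against 1.88 RPKM). These 20 include the related element pieces AT4G06656, AT4G06664, AT4G06666, AT4G06710, AT4G06712, AT4G06714 and AT4G06716. They also include AT4G06660, 99.3% identical to AT4G06666 over 52.5% of its length. Such loci can share reads and are not independent, so the count does not show a pattern of the region. The number tested was 15, 6, 13 and 28 in the same order, so the stretches with more lower loci also held more loci above the level for testing.

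**Figure D4:**
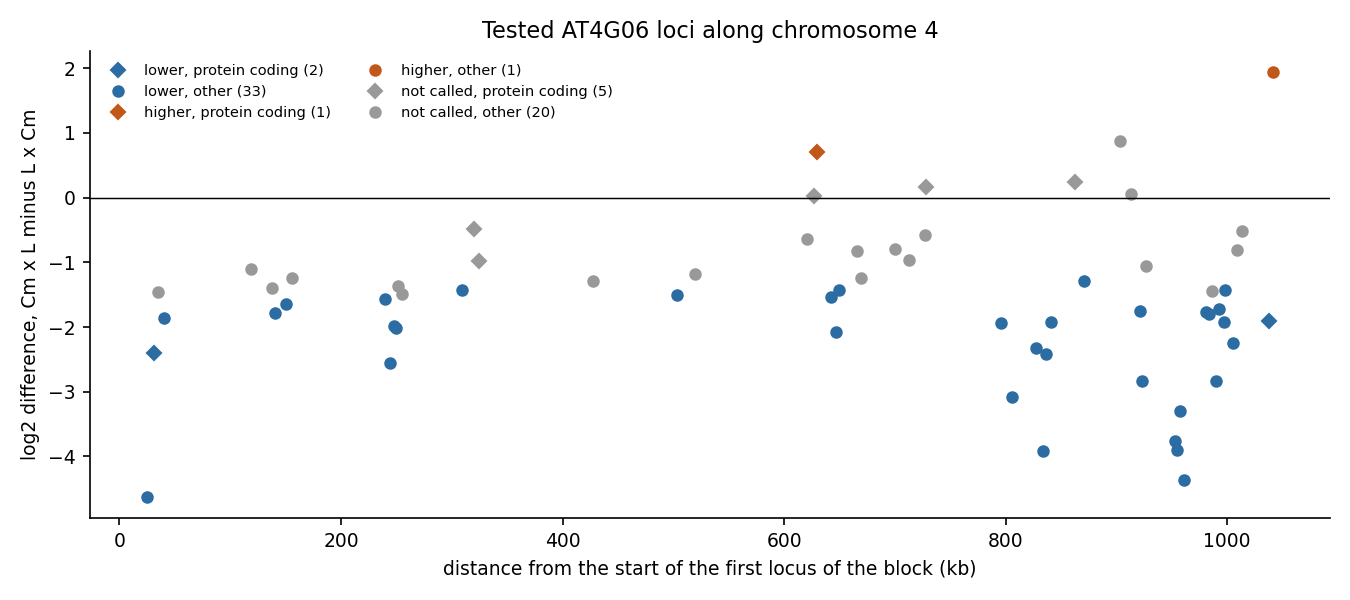
log2 difference (Cm x L minus L x Cm) of the tested AT4G06 loci with a position, against distance from the start of the first locus in kb. Blue marks the 35 lower loci, orange the 2 higher and grey those not called, with diamonds for protein coding genes. Of the lower loci 20 lie in the last of 4 equal stretches of the block, among them related element pieces that are not independent. AT4G06477 is the low point at the left.

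No gene on the heterochromatin silencing list was called lower. The list also holds DME, which encodes a DNA demethylase and so is not itself a silencing gene (0.2, limma adjusted p = 0.66). All 19 were tested, 0 were lower in Cm x L by limma at the adjusted threshold (1 at an unadjusted p under 0.05) and 2 were higher (10.5%), with a median difference of 0.12. Over all tested loci 18.3% were lower and 6.73% higher, with a median of -0.22. That background is not matched in level, since 3141 of its 4870 lower calls came from loci averaging 1 to 5 RPKM. Every gene on the list averaged above 5 RPKM in both crosses. With the filter raised to 5 RPKM, 1322 of 17165 loci were lower and 1374 higher, with a median of 0.05. Whether the genes on the list differ from those loci was not tested. HTA7, which encodes the histone variant H2A.W, had 137.8 ± 34.6 RPKM in Cm x L against 83.6 ± 3.99 in L x Cm (SD, n = 3 per cross; 0.69, limma adjusted p = 0.041). MORC6, an ATPase needed for heterochromatin silencing, had 44.7 ± 4.93 against 27.4 ± 5.06 RPKM (0.69, limma adjusted p = 0.03). The chromatin remodeller gene DDM1 had 28.7 ± 0.77 against 33.6 ± 4.16 RPKM (-0.21, limma adjusted p = 0.32). The DNA methyltransferase gene MET1 had 14.5 ± 2.85 against 10.6 ± 1.6 RPKM (0.41, limma adjusted p = 0.19). For these 2 genes the p-values do not show that levels were equal.

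By Pearson correlation over the 6 libraries, the loci whose log2(RPKM + 1) values were most like those of AT4G06477 were AT5G28470, CYP705A2 and IQD15. For AT4G06664 they were AT5G01740, the NADPH oxidase gene RBOHD and AT3G18460. The libraries form 2 separate groups by cross, so no coefficient is given, and all 6 of these loci are protein coding.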

How the data were processed

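Poly(A) RNA of INTACT nuclei was sequenced from 3 libraries of each cross, per the labels' protocols (mirVana, NEBNext Ultra II). Alignment with TopHat2 2.1.0 and build TAIR10 are per the submitters' processing notes. Counting rules, strand and the handling of multiply aligned reads were not given in the sources used here. Deposited values are RPKM, scaled by the authors for locus length and library total. Columns were matched to samples by parent order and replicate number, and 0 were left unmapped.

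RPKM × exon length gave whole reads (within 0.02) at 99.4% to 100.0% of pseudogenes under 8 reads, with a step chosen for a high share. limma 3.58.1 in R 4.3.3, with an intensity trend and cross direction as its only term, was run on log2(RPKM + 1), 2-sided, where a locus averaged 1 RPKM or more. The test was run on simulated data first. Single values per library used exact permutation tests (scipy 1.17.1). Locus sequences (TAIR10.1) were searched against the genome with BLAST+ 2.17.0, and because the build name differs from the authors' only these matches have coordinates. The named loci were the 4 examples of the rule, the 10 largest lower and all higher calls, the 5 most abundant and the protein coding loci that were tested, with the called silencing genes, DDM1 and MET1. The members and lists were chosen with earlier results of these data known. Alternatives covered pseudocount, filter, scaling, trend, replicate block, each library left out, and floor subtraction. Read floors cover counting error only.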

Additional observations from a re-analysis of the deposited data

How the results depend on the processing

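Of the 14 called loci named in the text, 11 kept their call and direction in every alternative that tested them; RAP2.9 lost it with quantile normalization (adjusted p = 0.085) and, like AT4G06599 and AT4G06748, without single libraries. The count of lower loci was 35, and 29 and 35 with pseudocounts of 0.1 and 0.5, which moved the median to -3.48 and -2.04. A mean of at least 5 RPKM left 13 loci tested, 8 lower, 1 higher, 11 without overlap and a median of -3.08. Over the whole table that filter gave 1322 lower and 1374 higher of 17165 loci, with a median of 0.05. Among the 8 were AT4G06656, AT4G06664, AT4G06710, AT4G06712, AT4G06714 and AT4G06716, related element pieces that can share reads and are not independent. With no filter 79 of 223 did not overlap and the median was -0.49. Quantile normalization gave 15 lower and a median of -0.68. Median-ratio scaling gave 1 higher, and AT4G06598 turned to -0.11. AT4G06534 and AT4G06536 turned to 0.59 and 0.04 with quantile normalization. Leaving out 1 library gave 11 to 42 lower, 0 to 2 higher, and -0.13 to 0.22 for AT4G06598. The summed difference was 1.49 on the log2 scale without AT4G06477. Counting loci above 2 RPKM gave a difference of 42.33 between cross means, and floor subtraction 41.0. Floor subtraction left 33 loci lower, 2 higher and 45 without overlap, with a median of -1.23. The summed difference was then 2.84 on the log2 scale, against 2.72 in the main setting. Over the whole table it gave 3889 lower and 2059 higher loci. With the replicate block 31 were lower and 2 higher. The labels do not say that equal numbers pair libraries, so the main fit had no block. Deviations of same-numbered libraries correlated at 0.08, 0.15 and 0.2. Those of differently numbered libraries correlated at -0.23 to 0.12, highest for L x Cm replicate 1 with Cm x L replicate 2. Depth limits loci listed at 0, where 3 reads at 1 kb are 0.103 to 0.141 RPKM.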
